A study of Mus musculus with 21 samples.

Results

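The genes of MHC class II antigen presentation were followed in small-intestinal IgA+ plasma cells of mice that had or lacked the clock gene Arntl in the B lineage. The group was chosen by symbol, as the rows of the deposited count table named H2-Aa, H2-Ab1, H2-Eb1, Cd74, Ciita, H2-DMa, H2-DMb1, H2-DMb2, H2-Oa and H2-Ob. All 10 symbols were found, once each, among 53801 genes, and all 10 were among the 20256 genes whose counts summed to 10 or more and that entered the tests. Bulk RNA-seq had been made from IgA+ plasma cells sorted from the small intestine, with 1 library per mouse. The study's legend for its flow plots of such cells gives CD138+ IgA+ cells with no requirement for surface MHC class II. That legend does not describe the sort of these libraries. Control mice (Mb1Cre-/- x Arntlfl/fl) gave 6 libraries at ZT0, the hour of lights on, and 6 at ZT12, the hour of lights off. Knockout mice (Mb1Cre+/- x Arntlfl/fl) gave 4 libraries at ZT0 and 5 at ZT12. Every mouse was on the C57BL/6 background and carried the floxed Arntl alleles, and the genotypes differed by design in the Cre alone. The Cre is driven by Mb1 (Cd79a), which is active from early B cell development on, so that Arntl was lost long before the cells became plasma cells. The sample titles gave the genotype, and the separate genotype field of 8 of the 9 knockout libraries named the control genotype. The ages of the mice were not given in the labels.

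MHC class II molecules are pairs of an alpha and a beta chain that display peptides from endocytosed protein to CD4 T cells. The chains assemble in the endoplasmic reticulum on the invariant chain, Cd74, which fills the groove and directs the complex to endosomes, where it is degraded and the last peptide is exchanged by H2-M under the restraint of H2-O. Transcription of the class II chains depends largely on Ciita, a co-activator that binds no DNA itself. It docks on a complex of RFX, CREB and NF-Y factors at the X and Y boxes of the class II promoters. B cells transcribe class II genes constitutively, and plasma cells are known for silencing Ciita through Prdm1 (Blimp-1). In mice of the C57BL/6 background the I-A molecule, H2-Aa with H2-Ab1, is made, and the I-E molecule is not, since its alpha chain gene H2-Ea carries a promoter deletion.

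The promoters of the members are shown because the boxes that Ciita needs can be looked for in them. The part of these boxes in the levels of the members was not tested. A RefSeq window on build GRCm38.p6 was found for 7 of the 10 members, and the 6 that held the core of the Y box are printed below from base -130 to base -21 before the RefSeq start, 5′ to 3′ on the strand of the gene. Capitals mark the Y box core GATTGG on either strand and the letters AACNNATG of an X box-like motif on either strand. The motifs did not overlap each other in any window.
H2-Aa, minus strand, chr17:34287844-34287953: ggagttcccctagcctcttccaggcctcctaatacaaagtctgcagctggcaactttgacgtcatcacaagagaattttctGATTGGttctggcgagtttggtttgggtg
H2-Eb1, plus strand, chr17:34305737-34305846: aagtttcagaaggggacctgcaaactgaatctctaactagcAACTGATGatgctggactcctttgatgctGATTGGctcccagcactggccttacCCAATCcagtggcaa
H2-DMb1, plus strand, chr17:34153061-34153170: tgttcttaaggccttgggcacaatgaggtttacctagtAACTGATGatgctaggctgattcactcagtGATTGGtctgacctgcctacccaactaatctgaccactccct
H2-DMb2, plus strand, chr17:34145119-34145228: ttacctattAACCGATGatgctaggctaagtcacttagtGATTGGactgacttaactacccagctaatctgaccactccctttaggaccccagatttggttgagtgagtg
H2-Oa, plus strand, chr17:34092249-34092358: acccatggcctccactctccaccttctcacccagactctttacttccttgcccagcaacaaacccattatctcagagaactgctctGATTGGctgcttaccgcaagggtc
H2-Ob, plus strand, chr17:34238775-34238884: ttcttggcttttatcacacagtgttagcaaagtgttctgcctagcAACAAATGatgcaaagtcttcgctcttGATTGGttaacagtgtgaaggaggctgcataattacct
The Y box core stood within these 110 bases in 6 of the 7 members and in 9.1% of all 32851 RefSeq windows cut to the same bases. The X box-like letters were found in 4 members, H2-Eb1, H2-DMb1, H2-DMb2 and H2-Ob, and in 3.39% of all windows. In those 4 genes the first base of the X box-like motif lay 29, 30, 30 and 27 bases before that of the Y box core, and 0.271% of all windows held both. The RefSeq starts lay within 119 bases of the gene starts in the deposited file, except for H2-DMb2, whose RefSeq start lay 1942 bases inside the gene, and H2-DMa, whose RefSeq starts lay 12350 and 9664 bases before it. The H2-DMa windows, which held neither set of letters, therefore do not show the sequence before the gene as it was counted. H2-Ab1, Cd74 and Ciita had no window.

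The libraries held between 14471018 and 22785835 counts, of which 51.5% to 63.6% fell on immunoglobulin genes. Arntl, the targeted gene, was at 6.83 to 8.36 counts per 1000000 (CPM) in control libraries at ZT0. In knockout replicates 1 to 4 at ZT0 it was at 4.51, 4.08, 6.47 and 4.42 CPM. At ZT12 it was at 4.00 to 5.56 CPM in control and at 3.11 to 4.93 CPM in knockout, and the count over the whole gene does not isolate the deleted exon. Between genotypes Arntl differed at ZT0 by -0.68 ± 0.17 on the log2 scale (unadjusted p 0.000486, adjusted p 0.926, edgeR) and at ZT12 by -0.23 ± 0.16 (unadjusted p 0.174, adjusted p 0.678), where the groups overlapped, so that at ZT12 the transcript did not separate the genotypes. The defining genes of the labelled cell type were high, with means of 304400 CPM for Igha, 48830 CPM for Jchain and 577 CPM for Sdc1, the gene of CD138. Control ZT12 replicate 2 stood apart from the other libraries, with the highest immunoglobulin share, 15296 genes with a count against 16956 or more elsewhere, and a scaling factor of 0.722 against 0.857 or more. Some of the results that rest on it are also given without it. The mice were of both sexes by their transcripts, with more Xist than Ddx3y (on the Y chromosome) in 10 libraries and the reverse in 11, 3 of each in both control groups. Knockout ZT0 replicate 3 held both, at 428 CPM of Xist and 20.7 CPM of Ddx3y, and had the highest Arntl of the knockout libraries. Whether it holds RNA of more than 1 mouse was not tested.

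Scaled by gene length, the members covered more than 3 orders of magnitude. Cd74 stood at a mean of 1008 CPM per kb, the 119th highest of the 20256 genes, and exceeded the next member, H2-Ab1, in 21 of 21 libraries by at least 6.67-fold (median 9.70-fold). H2-Ab1 (mean 93.2 CPM per kb) and H2-Eb1 (84.3 CPM per kb) lay close together, with H2-Ab1 higher in 18 of 21 libraries, and their ranges over libraries overlapped almost fully. H2-Aa, the partner chain of H2-Ab1, was at 27.1 CPM per kb and below H2-Eb1 in every library. The peptide editors were lower, at means of 6.66 CPM per kb for H2-DMa, 4.56 for H2-DMb1, 2.62 for H2-Ob, 0.723 for H2-DMb2 and 0.174 for H2-Oa. Ciita stood at 0.237 CPM per kb, between H2-DMb2 and H2-Oa, with 0 to 93 counts a library. The order of H2-DMa and H2-DMb1 held in 19 of 21 libraries and that of H2-DMb1 and H2-Ob in 17. That of Ciita and H2-Oa held in 15, so that each of these pairs changed places in some libraries. The I-E alpha chain gene is listed as the pseudogene H2-Ea-ps and had 0 to 3 counts a library.

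**Figure D1:**
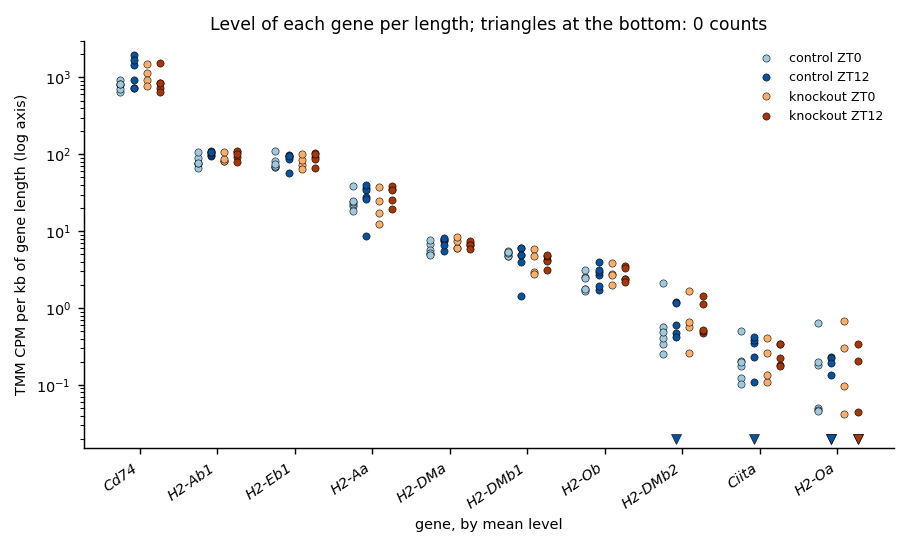
Level of each member in each of the 21 libraries, as TMM-scaled CPM per kb of gene length on a log axis, with 1 point per library in the colour of its group and triangles for libraries with 0 counts. Cd74 lies above every other member in every library, and Ciita, H2-DMb2 and H2-Oa reach 0 counts.

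The counts of some members are less certain than those of others. Of the 50-base stretches in the coding transcripts of H2-DMb1, 27.2% also occur in H2-DMb2, so that reads from these neighbours could be split or lost by the counting. Ciita (chromosome 16, 10480059 to 10528418) overlaps Dexi on the opposite strand over 25888 bases, and the whole of H2-Oa (chromosome 17, 34092340 to 34095234) lies inside the antisense gene BC051537. Whether the counting used strand is not given in the sources used here.

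The comparison of ZT12 with ZT0 in control mice asked whether class II transcripts differed between the start of the dark and of the light phase. None of the 10 members passed an adjusted p of 0.05 in edgeR's quasi-likelihood test, against 350 of 20256 genes (1.73%, 192 higher and 158 lower at ZT12). When the libraries were scaled by their totals alone, the median of all genes moved by -0.20 on the log2 scale and the split became 48 higher and 398 lower. At an unadjusted p of 0.05, 3 members were higher at ZT12 and none lower, H2-Ab1, Cd74 and H2-DMa, while 18.1% of all genes passed that threshold. Scaled by library totals alone, none of these 3 passed it, with log2 differences of 0.14 (p 0.299), 0.40 (p 0.0649) and 0.09 (p 0.593) for H2-Ab1, Cd74 and H2-DMa in edgeR. The median log2 fold change was 0.20 over the 10 members and 0.01 over all genes tested. The CPM ranges of the ZT0 and ZT12 groups overlapped for all 10 members, and did not overlap for 1.6% of all genes.

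H2-Ab1, the beta chain of I-A (chromosome 17, 34263209 to 34269418, GRCm38), came closest. Its lowest, median and highest values in control mice at ZT0 were 110, 126 and 173 CPM, and those at ZT12 were 156, 173 and 180 CPM. On the TMM scale the 6 mice at ZT12 lay close together and 3 of them were above every ZT0 mouse. ZT0 replicate 6, at 173 CPM, sat inside the ZT12 range. The log2 fold change was 0.35 ± 0.11 (SE, 95% interval 0.14 to 0.56), with an unadjusted p of 0.00269 and an adjusted p of 0.0871 in edgeR. An exact two-sided permutation test of the means gave p = 0.00866 for this gene alone. DESeq2 gave an adjusted p of 0.0117, and edgeR passed the threshold when ZT0 replicate 6 (adjusted p 0.034) or ZT12 replicate 1 (adjusted p 0.0473) was left out, and also with the sex of the mice, read from their transcripts, as a covariate (log2 fold change 0.36, adjusted p 0.0475). The call thus turned on the tool, single libraries and the covariate, and the size of the difference on the scaling.

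The other chains were less steady. H2-Eb1, the beta chain of I-E, had lowest, median and highest control values at ZT0 of 81.2, 86.1 and 132 CPM, and those at ZT12 were 67.8, 110 and 117 CPM, a log2 difference of 0.14 ± 0.14 (adjusted p 0.652, edgeR). H2-Aa, the alpha chain of I-A, ran from 34.7 to 73.5 CPM at ZT0 and from 16.0 to 74.8 CPM at ZT12, a log2 difference of 0.22 ± 0.32 (adjusted p 0.773, edgeR). Both genes were lowest in the control library that stood apart, ZT12 replicate 2. After TMM scaling H2-Ab1 was not low there, at 162 CPM. That value rests on the library's low scaling factor of 0.722, with 2666 H2-Ab1 counts among 22785835.

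Cd74, the invariant chain (chromosome 18, 60803848 to 60812646), had the largest positive log2 difference of the members in control mice. It ran from 919 to 1309 CPM at ZT0 (median 1139) and from 1031 to 2788 CPM at ZT12 (median 1679). The ZT12 mice fell in separate sets, with replicates 2, 3 and 4 at 2788, 2057 and 2342 CPM, above every ZT0 mouse, and replicates 1, 5 and 6 at 1031, 1302 and 1037 CPM, inside the ZT0 range. The log2 fold change was 0.66 ± 0.26 (95% interval 0.15 to 1.16), with an unadjusted p of 0.0199 and an adjusted p of 0.192 in edgeR. The exact permutation test gave p = 0.0866 (two-sided), and without ZT12 replicate 2 the log2 fold change was 0.48 with an unadjusted edgeR p of 0.0748. When each library's share of immunoglobulin counts was added to the fit it was 0.22 (unadjusted p 0.456), while the difference of H2-Aa became 0.90 (unadjusted p 0.00723, adjusted p 0.458) and that of H2-Eb1 0.40 (unadjusted p 0.0141, adjusted p 0.501), in edgeR.

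Ciita, the transactivator, did not differ detectably between the times. It was at 0.983 to 4.84 CPM at ZT0 and at 0 to 4.00 CPM at ZT12 in control mice, a log2 difference of 0.18 ± 0.58 (95% interval -0.96 to 1.32). It had no count in ZT12 replicate 2, the library with the highest Cd74, where 3 counts would be 0.182 CPM. H2-DMb2 and H2-Oa had no count in that library either.

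Among the peptide editors H2-DMa, the alpha chain of H2-M, ran from 7.94 to 12.5 CPM at ZT0 and from 8.99 to 13.6 CPM at ZT12 in control mice, a log2 difference of 0.29 ± 0.13 (unadjusted p 0.0392, adjusted p 0.249, edgeR). Its beta chain H2-DMb1 was within 7.09 to 8.22 CPM at ZT0 and spread from 2.13 to 9.05 CPM at ZT12, a log2 difference of -0.18 ± 0.23. H2-Ob, the beta chain of H2-O, had medians of 6.70 CPM at ZT0 and 8.89 CPM at ZT12, a log2 difference of 0.29 ± 0.20. H2-DMb2 (0 to 3.59 CPM over both times) and H2-Oa (0 to 0.833 CPM) were too low for a difference to be seen, with 95% intervals of -1.36 to 1.12 and -2.38 to 1.27 on the log2 scale.

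**Figure D2:**
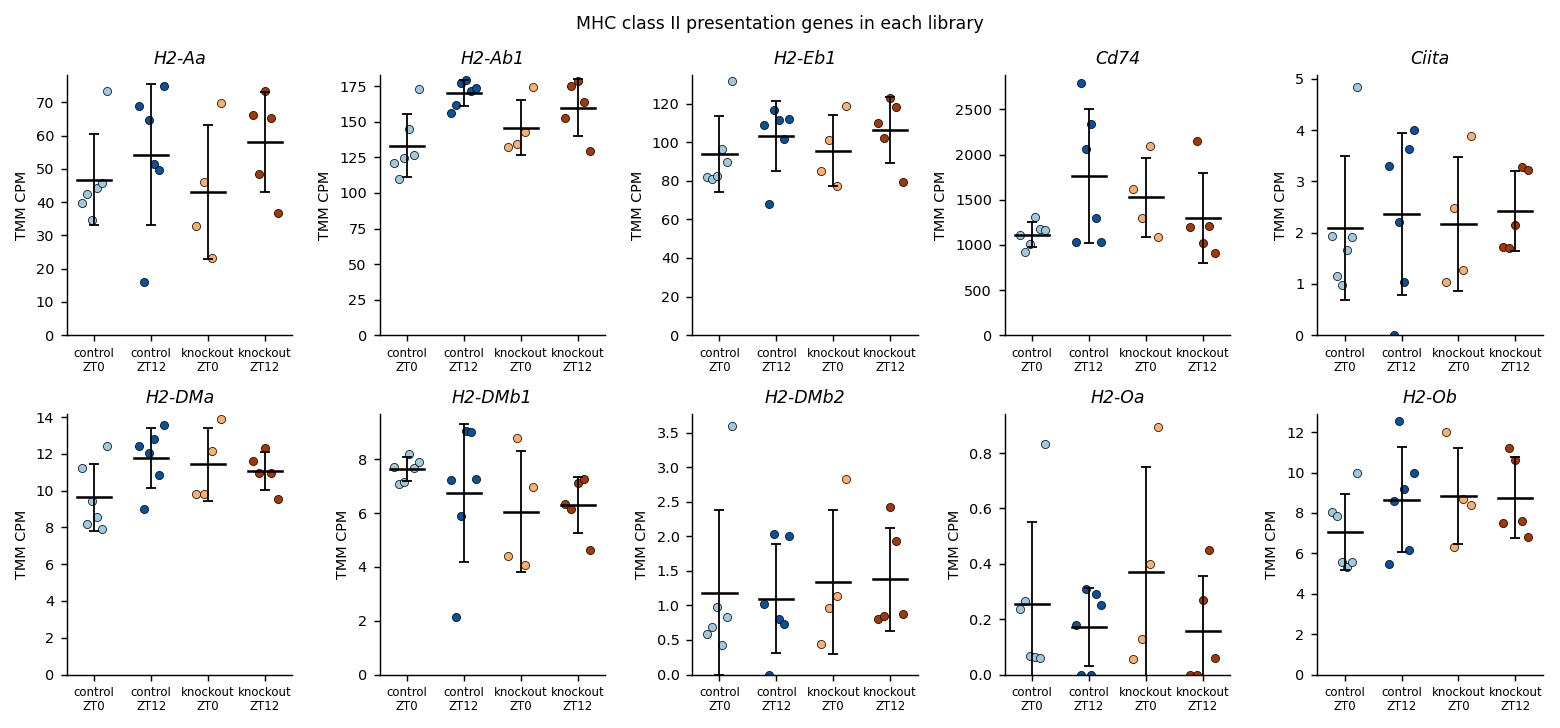
TMM-scaled CPM of each member in every library by group, with 1 point per mouse (replicates from left to right), a line at the group mean and bars of 1 SD, which are cut off at 0. H2-Ab1 in control mice at ZT12 lies between 156 and 180 CPM, and Cd74 in the same group splits between 1031 and 2788 CPM.

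In knockout mice the same comparison gave no call for any member. No gene of the 20256 passed the adjusted threshold in edgeR (0%), while 1622 genes (8.01%) passed an unadjusted p of 0.05 and DESeq2 called 47. None of the 10 members passed an unadjusted p of 0.05 in edgeR, and DESeq2 called none. Their median log2 fold change was 0.04, against 0.01 over all genes. The groups overlapped for all 10, and did not overlap for 2.63% of all genes.

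H2-Ab1 was at 132, 134, 143 and 174 CPM in the 4 knockout mice at ZT0 and at 153, 175, 179, 164 and 130 CPM in the 5 at ZT12. The groups overlapped over almost their full range, and the log2 fold change was 0.13 ± 0.12 (95% interval -0.11 to 0.38; adjusted p 0.811, edgeR). Cd74 was at 1622, 1302, 2094 and 1087 CPM at ZT0 and at 1196, 2153, 1026, 1211 and 906 CPM at ZT12. Here the high libraries lay at both times, replicates 1 and 3 at ZT0 and replicate 2 at ZT12. The log2 fold change of Cd74 was -0.23 ± 0.30 (95% interval -0.82 to 0.35), and with 1 library left out it ran from -0.49 to -0.04. H2-DMa was at 9.84, 9.82, 12.1 and 13.9 CPM at ZT0 and between 9.55 and 12.3 CPM at ZT12, a log2 difference of -0.05 ± 0.15. For the remaining 7 members the log2 differences lay between -1.24 (H2-Oa) and 0.43 (H2-Aa), each with an interval that held 0.

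The interaction asked whether the time difference itself differed between the genotypes. No gene passed the adjusted threshold in edgeR (0%), 2191 genes (10.8%) passed an unadjusted p of 0.05 and DESeq2 called 4. Of the members 1 passed the unadjusted threshold. Cd74 had a difference of differences of -0.89 ± 0.39 on the log2 scale (95% interval -1.66 to -0.12; unadjusted p 0.0357, adjusted p 0.451, edgeR). With 1 library left out this difference ran from -1.15 to -0.70. For H2-Ab1 it was -0.22 ± 0.16 (unadjusted p 0.192) and for H2-DMa -0.33 ± 0.20 (unadjusted p 0.111), so a difference between the genotypes in the time effect on these genes was not shown.

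**Figure D3:**
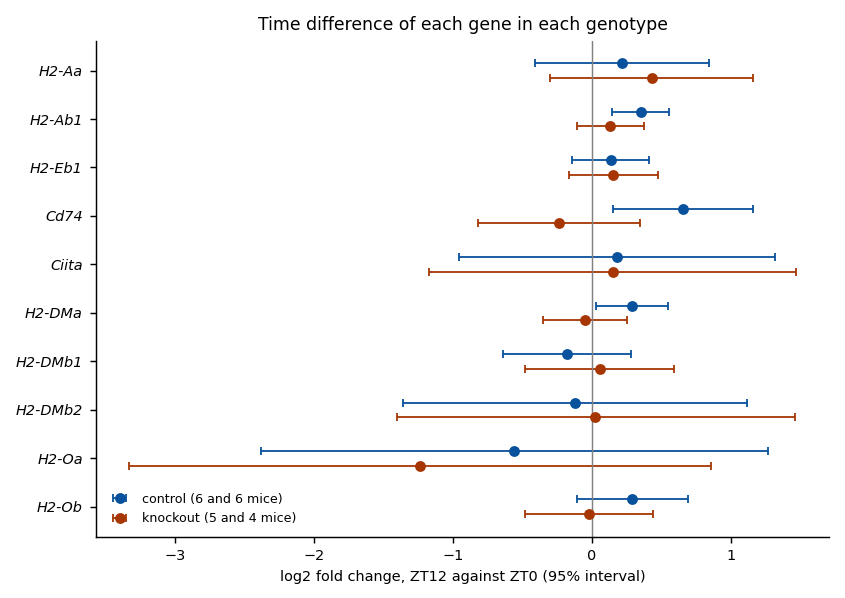
Log2 fold change of ZT12 against ZT0 for each member, with 95% intervals, in control mice (blue) and in knockout mice (brown). The control intervals of H2-Ab1, Cd74 and H2-DMa lie above 0, every knockout interval crosses 0, and the intervals of the genotypes overlap for each gene.

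Knockout and control mice were also compared at each time. At ZT0 edgeR called 2 genes of 20256 (0.00987%) and at ZT12 3 genes (0.0148%), with 4.9% and 8.83% of genes at an unadjusted p of 0.05. No member was called or passed the unadjusted threshold at either time, and DESeq2 called none. The groups overlapped for all 10 members at both times, and did not overlap for 0.977% of genes at ZT0 and 0.38% at ZT12. Cd74 was at a mean of 1526 ± 438 CPM (SD, n = 4) in knockout and 1115 ± 137 CPM (n = 6) in control mice at ZT0, a log2 fold change of 0.45 ± 0.29. At ZT12 it was at 1298 ± 494 CPM (n = 5) and 1759 ± 741 CPM (n = 6), a log2 fold change of -0.44 ± 0.27. The adjusted p of these differences was 0.926 and 0.63 in edgeR. These comparisons share their groups with the time comparisons, so the values are not independent of them.

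Of the other genes of the pathway, 48 were tested. In control mice edgeR called 1 of these 48, against 1.73% of all genes, and DESeq2 called 3, against 8.5% of the 12381 genes to which it gave an adjusted p. Rfx5, the subunit of the RFX complex that binds the X box, had lowest, median and highest values at ZT0 of 36.0, 41.8 and 45.6 CPM, and at ZT12 fell to 27.4, 32.2 and 37.1 CPM, a log2 fold change of -0.34 ± 0.08 (adjusted p 0.0403, edgeR). The call was lost without any 1 of 9 libraries, namely every control library except ZT0 replicate 3 and ZT12 replicates 1 and 6, with adjusted p up to 0.0976, while the log2 fold change stayed between -0.38 and -0.30. In knockout mice Rfx5 was at 38.4 to 43.1 CPM at ZT0 and 30.6 to 35.7 CPM at ZT12, a log2 difference of -0.34 ± 0.10 (unadjusted p 0.00165, adjusted p 0.414, edgeR). The difference of differences was 0.00 ± 0.13 on the log2 scale (95% interval -0.25 to 0.25) over both genotypes. Nfyc, an NF-Y subunit that binds the Y box, differed by -0.10 ± 0.10 in control mice.

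Among the 9 regulators of Ciita none was called by edgeR. Prdm1, the repressor of Ciita, was at 268 to 359 CPM at ZT0 and 226 to 344 CPM at ZT12 in control mice, a log2 difference of -0.30 ± 0.10 (adjusted p 0.126, edgeR; 0.0473, DESeq2), and at 247 to 297 and 258 to 311 CPM in knockout mice, a log2 difference of -0.03 ± 0.12. Irf4, which plasma cells require and which can also act on class II genes, was at a mean of 393 CPM over all libraries and was not called. Per length, Prdm1 stood at 50.1 and Ciita at 0.237 CPM per kb.

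Of 12 measured genes of class II antigen processing none was called by edgeR and 1 by DESeq2, whose share over all genes was 8.5%. Ctss, the cathepsin that trims the invariant chain, had group means of 68.2 and 107 CPM in control mice at ZT0 and ZT12 and of 108 and 97.9 CPM in knockout mice, a log2 difference of 0.65 ± 0.26 in control (adjusted p 0.196, edgeR). Ctsb, another lysosomal protease, differed by 0.19 ± 0.10. None of 13 genes of MHC class I presentation was called either. At an unadjusted edgeR p of 0.05, 2 of the 13 were higher and 1 lower at ZT12 in control mice (18.1% of all genes passed). In knockout mice 1 was higher and 6 lower (8.01%), and in the interaction 6 were negative (10.8%). Between genotypes 4 were higher in knockout at ZT0 (4.9%) and 1 lower at ZT12 (8.83%). Genes that move together are not independent. B2m, the light chain of class I, had means of 839 and 1071 CPM at ZT0 and ZT12 in control mice (log2 difference 0.35, adjusted p 0.199, edgeR), and Calr, a chaperone of class I assembly, means of 936 and 899 CPM. Of 5 costimulatory genes none was called, with Cd83 at a mean of 33.6 CPM and Cd80 at 4.54 CPM. H2-Eb2, a further beta chain gene, was at 13.5 to 41.4 CPM and differed by -0.14 ± 0.24 in control mice. Over the 48 genes, 28 had a positive and 20 a negative difference in control mice, with a median of 0.04. In knockout mice 17 were positive and 31 negative, with a median of -0.09.

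How the members varied together was measured over all 21 libraries, as Pearson's r of log2(CPM + 0.5) with H2-Ab1. The shuffling behind each permutation p took no account of the group or sex of the mice. H2-Eb1 (r = 0.70, Spearman's rho = 0.75) and H2-DMa (r = 0.70, rho = 0.69) followed H2-Ab1, with adjusted permutation p of 0.00283 for both r over the 9 relations tested. The adjusted permutation p was 0.0778 for H2-Aa (r = 0.46), H2-DMb2 (r = 0.45) and H2-Ob (r = 0.45). For H2-Aa rho was 0.66, with an adjusted permutation p of 0.00396. The adjusted permutation p of r was 0.135 for Cd74 (r = 0.38, rho = 0.36), 0.283 for Ciita (r = 0.26) and H2-Oa (r = 0.27) and 0.839 for H2-DMb1 (r = 0.05). Without the 2 libraries farthest from the median of H2-Ab1, control ZT0 replicates 1 and 2, r was 0.66 for H2-Eb1 and 0.72 for H2-DMa. With group means removed, r was 0.74 for H2-Eb1, 0.62 for H2-DMa and for H2-DMb2, 0.56 for H2-Oa, 0.50 for H2-Aa and 0.20 for Cd74.

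H2-Aa, the partner of H2-Ab1, had its highest r with H2-Eb1. Within groups r of H2-Aa was 0.93 with H2-Eb1, 0.81 with Ciita, 0.80 with H2-DMb1, 0.79 with H2-DMb2, 0.50 with H2-Ab1 and -0.54 with Cd74. These values describe the 21 libraries and share their depth and scaling, and the choice of H2-Aa and Cd74 for them was made after the values were seen. Without control ZT12 replicate 2, r of H2-Aa was 0.91 with H2-Eb1, 0.70 with H2-DMb2, 0.61 with H2-Ab1 and with Ciita, 0.54 with H2-DMb1 and -0.35 with Cd74, so that of these values only those with H2-Eb1 and H2-DMb2 lay above that with H2-Ab1.

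Among 11634 genes with a mean of at least 1 CPM, the genes whose deviations from the group means were most like those of H2-Ab1 were Isyna1, Gm15751, H2-Eb1, Limd2, 5430416N02Rik, Kdm5d, Id2, Arid3b, Eif2s3y and Tnfrsf1a, with r from 0.76 down to 0.66. Kdm5d and Eif2s3y lie on the Y chromosome. H2-Eb1 was the only member among these 10, and Cd74 ranked 2218th. The genes most like Cd74 were Minos1, Gla, Prg2, Ly6d, Cd2, Ctss, Mpdu1, Umad1, Frmpd2 and Snx8 (r 0.95 to 0.92), and Ctss was the one of them on the class II list. Those most like H2-Aa were Clec7a, Nr4a3, Il1r2, Fyb, Lyz2, Il1b, Tnfaip2, Myo1f, H2-Eb1 and Cd86 (r 0.97 to 0.93), which include genes known for high levels in myeloid cells.

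**Figure D4:**
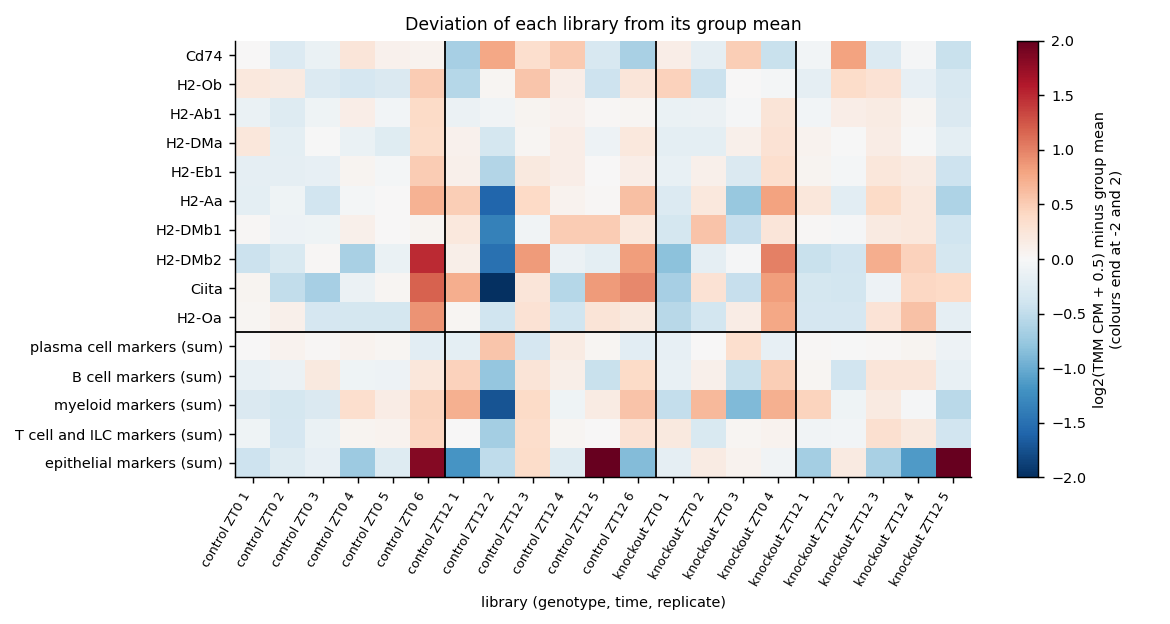
Deviation of log2(TMM CPM + 0.5) from the group mean in each of the 21 libraries, for the 10 members (above the line) and for the summed CPM of 5 marker lists (below it), with colours ending at -2 and 2. In control ZT12 replicate 2 Cd74 is above its group mean while H2-Aa, H2-DMb1, H2-DMb2, Ciita and the myeloid sum are below theirs.

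By sex, H2-Ab1 ran from 110 to 172 CPM (median 137.5) in the 10 libraries with more Xist and from 127 to 180 CPM (median 174) in the 11 with more Ddx3y. In control mice its values at ZT0 and ZT12 did not overlap within either sex. This split of 3 against 3 libraries was made after the data were seen and was not tested. The share of all genes without overlap in it was not taken. The 3 female libraries were at 110 to 125 CPM at ZT0 and at 156 to 172 CPM at ZT12. The 3 male libraries were at 127 to 173 CPM at ZT0 and at 174 to 180 CPM at ZT12, so that they nearly met. H2-Eb1 had medians of 82.1 and 112 CPM in the female and male libraries, and H2-DMa had medians of 10.3 and 12.05 CPM. The first column run of the deposited table held female libraries only, and the part of sex in the levels of the members was not tested beyond the covariate.

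Markers of other cells were measured beside the members. None of the 18 myeloid markers was called in any of the 5 comparisons, and none was at 0 in all libraries. Their summed level was 74.5 to 130 CPM in control mice at ZT0, 29.1 to 160 CPM in control at ZT12, 43.5 to 132 CPM in knockout at ZT0 and 73.0 to 145 CPM in knockout at ZT12. Of the defining genes Itgax (CD11c) was at 0.79 to 12.8 CPM, Itgam (CD11b) at 0.80 to 4.57 CPM and Csf1r at 2.61 to 30.8 CPM. Within groups r of the myeloid sum was 0.94 with H2-Aa, 0.85 with H2-Eb1, 0.84 with H2-DMb1, 0.79 with Ciita, 0.40 with H2-Ab1, -0.14 with H2-Ob and -0.55 with Cd74. The part of these cells in the levels of the members was not tested. In bulk libraries fewer cells of a type and less RNA per cell cannot be told apart.

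The 12 B cell markers summed to 19.9 to 55.3 CPM, with Ms4a1 (CD20) at 0.44 to 3.34 CPM, and r of their sum within groups was 0.85 with H2-Aa, 0.31 with H2-Ab1 and -0.60 with Cd74. The 12 T cell and ILC markers summed to 11.1 to 29.1 CPM, with Cd3e at 0 in 5 libraries and Cd3d in 9. For that sum r was 0.78 with H2-Eb1, 0.72 with H2-Aa, 0.64 with H2-Ab1 and -0.14 with Cd74. Cd4 alone made up a mean of 15.6 CPM of that sum and the other 11 genes together 5.32 CPM, and r with H2-Ab1 was 0.24 for Cd4 and 0.38 for the other genes. Of the 16 epithelial markers listed 15 were tested, and they summed to 55.7 to 960 CPM with r of 0.06 with H2-Ab1 and -0.05 with Cd74. The plasma cell markers summed to 282300 to 594200 CPM, and r was -0.76 with H2-Aa, -0.18 with H2-Ab1 and 0.55 with Cd74. Igha and Jchain made up nearly all of that sum, at means of 304400 and 48830 CPM against 2197 CPM or less for each other marker. The plasma cell sum therefore follows those genes and does not speak for the other markers. Control ZT12 replicate 2 had the highest plasma cell sum and the lowest myeloid, B cell and T cell sums of the 21 libraries. Without it r of the myeloid sum was 0.88 with H2-Aa, 0.627 with H2-DMb1, 0.575 with Ciita, 0.47 with H2-Ab1 and -0.36 with Cd74. For the plasma cell sum r was then -0.53 with H2-Aa and 0.365 with Cd74. For the B cell sum it was 0.76 with H2-Aa and -0.47 with Cd74. For the T cell sum it was 0.66 with H2-Eb1, 0.50 with H2-Aa and 0.20 with Cd74. None of the B cell, T cell, epithelial or plasma cell markers was called in any comparison, and their part in the levels of the members was not tested. The study's legend for its flow plots of small-intestinal plasma cells gives CD138+ IgA+ cells. They were taken from live CD45+ cells without CD3, CD5, NK1.1, B220 or IgD. Whether other cells were carried through the sort was not tested.

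**Figure D5:**
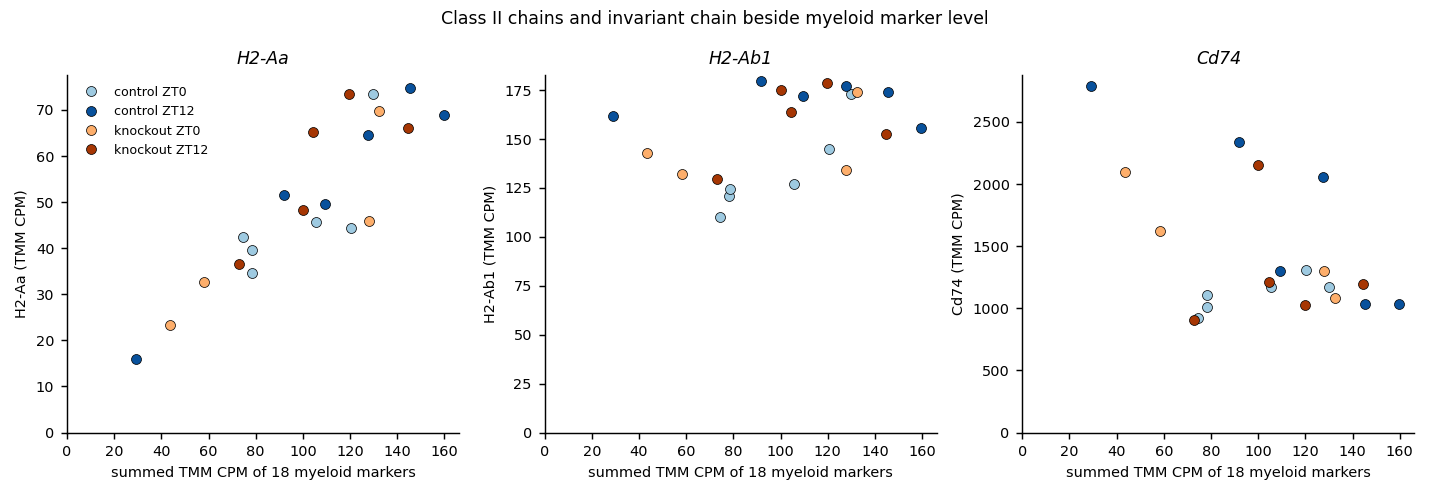
CPM of H2-Aa, H2-Ab1 and Cd74 in each of the 21 libraries against the summed CPM of 18 myeloid markers, with 1 point per library in the colour of its group and axes that start at 0. H2-Aa rises with the marker sum from 16.0 to 74.8 CPM, H2-Ab1 stays between 110 and 180 CPM, and the 6 libraries with Cd74 at 1622 CPM or more lie at marker sums up to 128 CPM.

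The columns of the deposited table fall in 3 runs of 7 libraries, each run listing the groups in the same order, and the labels do not say what the runs are. Cd74 was above every control ZT0 library in 6 libraries, all of them in the first run (2788 and 1622 CPM) or the second (2057, 2342, 2094 and 2153 CPM). In the third run its range was 906 to 1302 CPM over 7 libraries. Within control mice the mean of Cd74 went from 1013 to 1909 CPM in the first run, from 1241 to 2200 CPM in the second and from 1168 to 1169 CPM in the third, from ZT0 to ZT12. For H2-Ab1 the same means were 119 and 159 CPM, 136 and 178 CPM, and 173 and 173 CPM. The third run held 1 control mouse at ZT0 and 2 at ZT12, so its own values carry little precision. With the run as a block, a choice made after the data were seen, the control log2 fold change of H2-Ab1 was 0.32 (adjusted p 0.0658, edgeR) and that of Cd74 0.66 (adjusted p 0.0904). H2-Aa and Ciita were highest in the third run, with medians of 39.6, 46.0 and 69.8 CPM for H2-Aa and of 1.16, 1.70 and 3.63 CPM for Ciita from the first run to the third.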

How the data were processed

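The authors deposited 1 table of raw read counts per gene for 21 libraries (poly-A RNA, NEB Next Ultra, paired-end NovaSeq). DESeq and DESeq2 are named in the submitters' processing notes; the aligner, counter and annotation are not given in the sources used here. Gene coordinates are those of the file and match GRCm38. The 20256 genes whose counts summed to 10 or more were fitted in R 4.3.3 with edgeR 4.0.16 (TMM, robust quasi-likelihood, 4 group means over all 21 libraries, Benjamini-Hochberg over all genes, threshold 0.05). DESeq2 1.42.0 was the alternative tool. CPM are per 1000000 TMM-scaled counts, with 0.5 added before logs. Intervals are 1.96 SE. Permutation tests (scipy 1.17.1) were exact for groups and used 100000 resamples for correlations. The p-values of the group comparisons measure the spread between mice. Those of the correlations come from shuffling all 21 libraries without regard to group, sex or column run. The fit was tested on simulated counts. No library pair in a group (46 pairs) agreed within sampling noise. Marker and pathway lists were written by hand, and the text names all 10 members, other pathway genes that were called or had the 2 highest levels per length in their list, the 10 genes most like H2-Ab1 and the first markers of each list. The members and lists were chosen with earlier results of these data known. Depth limits H2-Oa, H2-DMb2 and Ciita most.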

Additional observations from a re-analysis of the deposited data

Results flagged for a closer look

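In 7 of the 40 sets of a member in a group, 1 library lay far from the others of its group (Dixon's gap over range, above the critical value for the group's size), where chance flags about 1 in 20. Control ZT0 replicate 6 was the highest of its group for H2-Aa (73.5 CPM), H2-Eb1 (132 CPM), Ciita (4.84 CPM), H2-DMb2 (3.59 CPM) and H2-Oa (0.833 CPM). That library also had the lowest immunoglobulin share, 51.5%, the most genes with a count, 18765, and the highest scaling factor, 1.15. Control ZT12 replicate 2 was the lowest of its group for H2-Eb1 (67.8 CPM). Knockout ZT12 replicate 2 was the highest of its group for Cd74 (2150 CPM). The tests of 1 gene in several groups and of members that move together are not independent, and what set these libraries apart was not tested.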

How the results depend on the processing

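Of 597 fold changes of the members and Rfx5 under other settings, 551 kept their direction and their side of the threshold, and of 1071 with 1 library left out, 986 did. In control mice the number of genes called at ZT12 against ZT0, 350 in the report, was 1052 with DESeq2, 14 at a threshold of 0.01, 38 with only the control groups fitted, 0 with the immunoglobulin share as a covariate and 545 with the column run as a block. With 1 library left out it ran from 31 to 944 and moved by over 1.5 times in 15 of 21 cases: 42, 31, 89, 143, 100 and 194 without control ZT0 replicates 1 to 6, 944, 101, 116, 37, 181 and 687 without control ZT12 replicates 1 to 6, and 207, 225 and 217 without knockout ZT12 replicates 1, 3 and 4. The cause was not tested. In knockout mice the number was 47 with DESeq2, 1 without a count filter, 1 with the immunoglobulin share and 0 to 1 with 1 library left out. The interaction gave 4 with DESeq2 and 0 to 1 with 1 library left out, and the genotype comparisons gave 5 (ZT0) and 8 (ZT12) with DESeq2. A fit of the interaction to its own groups alone is the fit reported.

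With the replicate number as a block the control count was 183. The numbers are not stated to mark a shared litter or day, and same-numbered libraries correlated at 0.11, 0.01, -0.15, 0.10, -0.12 and 0.02 in control and at 0.01, -0.15, -0.10 and 0.16 in knockout, so the samples were not treated as pairs. Under the replicate block Ciita (-0.038) and H2-Ob (0.0398) changed sign in knockout, and no call of a member changed.

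The other values that changed sign are log2 fold changes of members that passed no threshold. With DESeq2 these were H2-Eb1 in the interaction (-0.0013) and H2-Ob between genotypes at ZT12 (-0.0058), and with its size factors in edgeR they were -0.0012 and -0.0058. With library size alone, H2-Eb1 was -0.056 in control and -0.024 between genotypes at ZT0, H2-DMb2 -0.026 in knockout, Ciita 0.083 in the interaction, and H2-Ab1 0.036, H2-DMa 0.022 and H2-DMb1 0.0018 between genotypes at ZT12. With the immunoglobulin share, H2-DMb1 was 0.14, H2-DMb2 0.81 and H2-Oa 0.032 in control, H2-DMb2 -0.026 in knockout, H2-Aa -0.45, H2-Eb1 -0.26, H2-DMb1 -0.084 and H2-DMb2 -0.84 in the interaction, H2-Aa 0.21 between genotypes at ZT0, and H2-Aa -0.24, H2-Eb1 -0.10, Ciita -0.44 and H2-Ob -0.037 at ZT12. With the column run, Ciita was -0.13 and H2-DMb2 -0.21 in knockout, H2-DMb2 -0.022 in the interaction, H2-Eb1 -0.025, Ciita -0.077 and H2-DMb2 -0.062 between genotypes at ZT0, and H2-Aa -0.000905, H2-Eb1 -0.0093, Ciita -0.23 and H2-DMb2 -0.084 at ZT12. With sex in the fit, a choice made after seeing the data, H2-DMb2 was -0.038 in knockout, H2-Eb1 -0.0089 in the interaction and Ciita -0.020 between genotypes at ZT12, and the control count of genes called was 297.

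With 1 library left out, the ranges that crossed 0 in control were -0.028 to 0.63 for Ciita, -0.28 to 0.0090 for H2-DMb1, -0.38 to 0.64 for H2-DMb2 and -0.79 to 0.29 for H2-Oa. In knockout they were -0.085 to 0.59 for Ciita, -0.12 to 0.049 for H2-DMa, -0.0904 to 0.28 for H2-DMb1, -0.27 to 0.69 for H2-DMb2 and -0.17 to 0.16 for H2-Ob. In the interaction they were -0.11 to 0.13 for H2-Eb1, -0.48 to 0.41 for Ciita, -0.62 to 0.81 for H2-DMb2 and -1.57 to 0.24 for H2-Oa. Between genotypes at ZT0 they were -0.45 to 0.083 for H2-Aa, -0.0902 to 0.15 for H2-Eb1, -0.38 to 0.51 for Ciita, -0.50 to 0.93 for H2-DMb2 and -0.40 to 1.38 for H2-Oa, and at ZT12 -0.10 to 0.22 for H2-Aa, -0.056 to 0.13 for H2-Eb1, -0.24 to 0.23 for Ciita, -0.29 to 0.00019 for H2-DMb1, -1.04 to 0.15 for H2-Oa and -0.098 to 0.14 for H2-Ob.

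Rfx5 in control kept its direction but lost its call without a count filter, at a threshold of 0.01, with only the control groups, under the replicate block and with the immunoglobulin share (adjusted p 0.0541, 0.0403, 0.0947, 0.0549 and 0.491). The relations of H2-Aa and H2-DMb2 with H2-Ab1 passed an adjusted permutation p of 0.05 with group means removed or without control ZT12 replicate 2, and that of H2-Oa with group means removed.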
